A study of Mus musculus with 4 samples.

Results

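ADAM10 and ADAM17 are proteases that sit in the cell membrane and cut the outer parts off other membrane proteins, a step called shedding. The 9 genes described here are Adam10 and Adam17, the tetraspanin genes Tspan5, Tspan14, Tspan15, Tspan17 and Tspan33, and the iRhom genes Rhbdf1 and Rhbdf2. They were taken by name from 23635 genes counted in a single-cell RNA sequencing study of mouse tumours. They were chosen by family, with the group difference in Tspan15 level measured in these libraries already in view. That measured value, a lower level in the tumour cells of the knockdown libraries, means that the contrast for Tspan15 is given as a description with no p-value.

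The tumours were transplants of Py8119, a mouse mammary carcinoma cell line used as a model of triple-negative breast cancer. The study addressed what semaphorin 4D (Sema4d) made by the tumour cells does there. The control group held 2 libraries with the genotype control, and the knockdown group held 2 with the genotype Sema4d-shRNA, a short hairpin RNA directed at Sema4d (named shRNA 1 and shRNA 2 in the plots). The labels call the cells tumor cell, but the dissociated tumours also held immune and stromal cells. Host strain, sex and age, the time of growth and the number of tumours per library are not stated in the labels. Since nothing states that the libraries of a group came from separate animals, p-values measure only the spread between these libraries, which may be technical.

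ADAM10 cuts Notch receptors, cadherins and many other proteins, and it leaves the endoplasmic reticulum together with a tetraspanin of the TspanC8 group, which is made up of TSPAN5, TSPAN10, TSPAN14, TSPAN15, TSPAN17 and TSPAN33. Different TspanC8 partners bring ADAM10 to different places and favour different substrates, and TSPAN15 favours N-cadherin. ADAM17, also called TACE, releases tumour necrosis factor and several ligands of the epidermal growth factor receptor, and it needs iRhom1 (Rhbdf1) or iRhom2 (Rhbdf2), inactive relatives of rhomboid proteases, to mature and reach the cell surface. In immune cells iRhom2 is the main partner.

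The promoter of Tspan15 is shown beside those of Adam10 and Adam17 because Tspan15 was the member with the widest fitted difference between the groups in tumour-like cells and the other pair are the proteases. Each run is the 250 bases before the start of transcription in the RefSeq table of build GRCm38.p6, written 5′ to 3′ on the strand of the gene, with the matches to the searched motifs in capitals. The table held 7 of the 9 genes. Tspan15 lies on chromosome 10 at 62185396 to 62231251 on the minus strand of GRCm38 (GENCODE M21), and its window is chr10:62231219-62231468. Adam10 lies on chromosome 9 at 70678997 to 70780229 on the plus strand, with the window chr9:70678732-70678981. Adam17 lies on chromosome 12 at 21323509 to 21373632 on the minus strand, with the window chr12:21373633-21373882.
Tspan15: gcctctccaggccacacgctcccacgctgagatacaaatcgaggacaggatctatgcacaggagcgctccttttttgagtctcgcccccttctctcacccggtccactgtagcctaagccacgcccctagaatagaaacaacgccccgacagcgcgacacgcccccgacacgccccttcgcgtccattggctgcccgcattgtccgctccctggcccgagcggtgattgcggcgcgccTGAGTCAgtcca
Adam10: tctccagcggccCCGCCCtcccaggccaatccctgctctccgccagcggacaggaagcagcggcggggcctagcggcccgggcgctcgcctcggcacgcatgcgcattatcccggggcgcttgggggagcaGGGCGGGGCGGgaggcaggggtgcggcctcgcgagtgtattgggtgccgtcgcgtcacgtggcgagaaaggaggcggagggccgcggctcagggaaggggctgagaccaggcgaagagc
Adam17: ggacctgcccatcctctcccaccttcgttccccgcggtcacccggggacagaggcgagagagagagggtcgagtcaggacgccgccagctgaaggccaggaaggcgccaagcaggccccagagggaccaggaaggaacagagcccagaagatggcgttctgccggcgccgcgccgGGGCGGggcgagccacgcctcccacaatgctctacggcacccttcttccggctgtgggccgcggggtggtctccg

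The motifs searched on both strands were the GC box GGGCGG, the AP-1 site TGANTCA, the TEAD site GGAATG and the cyclic AMP response element TGACGTCA, and matches that overlapped were counted separately. Tspan15 held 1 AP-1 match and no GC box, Adam10 held 3 GC boxes and Adam17 held 1. Of the other genes with an entry, Tspan5 had 1 GC box, Tspan33 had 2, Tspan17 had 8, and Tspan14 had 5 in one of its 2 start regions and 0 in the other. Tspan15 was the only member with an AP-1 match, and no member window held a TEAD or cyclic AMP match. By the GENCODE coordinates the Tspan15 gene starts at 62231251, inside its window. The end of the window, with the AP-1 match, therefore lies within the gene by that annotation. Over 32851 promoters of the same length, 32.7% held a GC box, 6.75% an AP-1 match, 12.6% a TEAD match and 1.55% a cyclic AMP match. These are matches of letters and not measured binding sites. Member windows with a GC box held 13 to 33 CpG (a C followed by a G), against a median of 6 over all promoters. The GC box itself holds a CpG, and the shares were not matched for CpG content.

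The deposited matrices held 45220 cells, and 43400 were left after filters and removal of doublets (droplets scored as holding 2 cells). A library held 83513906 to 119758159 unique molecular identifiers (UMIs, each standing for 1 captured RNA molecule), with a median of 5690 to 8180 per cell. The cells were clustered without the 9 genes and named from markers, which gave 25597 tumour-like, 11227 macrophage or monocyte-like, 2030 T and NK-like, 479 dendritic-like, 239 fibroblast-like, 167 mammary epithelial-like, 140 neutrophil-like and 79 endothelial-like cells. Tumour-like cells carried Krt8 at 466 to 565 CPM (UMIs of the gene for each 1000000 UMIs of the class in a library) and almost no Epcam (mean 0.130 CPM), and macrophage or monocyte-like cells carried C1qa at 4724 to 5980 CPM. The dendritic-like class carried C1qa as well, at a mean of 1093 CPM, beside Flt3 at a mean of 80.5 CPM. In the controls 45.9% and 48.4% of cells were tumour-like, and in the knockdown 73.3% and 67.8%. Another 3442 cells stayed unnamed, 17.3% and 8.36% of the control and 2.61% and 3.62% of the knockdown libraries. Of these, 1385, 687, 183 and 379 in control 1, control 2, knockdown 1 and knockdown 2 formed a cluster led by mitochondrially encoded genes. That cluster carried Krt8 at 482 CPM over all libraries, and the tumour-like shares depend on how it is named. Sema4d itself was at 6.69 and 7.61 CPM in the tumour-like cells of the controls and at 3.84 and 5.47 CPM in those of the knockdown, with no overlap. The fitted log2 difference was -0.56 ± 0.18 (SE), and it did not pass the test (edgeR quasi-likelihood test, adjusted p = 0.293). In T and NK-like cells Sema4d was at 255 and 235 CPM in the controls and at 173 and 187 CPM in the knockdown (-0.43 ± 0.13, SE; edgeR adjusted p = 0.224). In macrophage or monocyte-like cells it was at 69.9 and 64.8 against 63.6 and 79.8 CPM (0.17 ± 0.12, SE; edgeR adjusted p = 0.695).

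Levels are given as CPM of the UMIs summed over all cells of a class in a library, so each gene is compared across classes and not with other genes. Differences between the groups are log2 of knockdown over control, so that a negative value is lower in the knockdown, from the edgeR quasi-likelihood test on the summed counts with 2 libraries a group. P-values were adjusted over all genes tested in the class by the Benjamini-Hochberg method, and a gene passed at an adjusted p under 0.05. The fit rescales libraries for composition, and its log2 differences lie 0.057 above the unscaled CPM ratio in tumour-like cells and 0.083 above it in macrophage or monocyte-like cells. Whether libraries overlap is judged on the unscaled CPM.

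Across cell classes, Adam10 was detected everywhere and was higher in mammary epithelial-like, endothelial-like and macrophage or monocyte-like cells than in the tumour. It reached 366, 190, 75.3 and 313 CPM in the mammary epithelial-like cells of control 1, control 2, knockdown 1 and knockdown 2. In endothelial-like cells the 4 values were 131, 288, 168 and 154 CPM, and in macrophage or monocyte-like cells they were 132, 120, 97.98 and 105 CPM. These 3 classes overlap in their ranges, and their order does not exceed the spread between libraries. T and NK-like cells followed with 44.4 to 56.2 CPM, and tumour-like cells stood at 29.9 to 40.0 CPM, below every macrophage or monocyte-like library. Dendritic-like (16.4 to 50.5 CPM), fibroblast-like (22.2 to 48.9 CPM) and neutrophil-like cells (20.7 to 30.7 CPM) overlapped the tumour.

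Adam17 had its highest mean level in macrophage or monocyte-like cells, where the controls held 99.0 and 88.2 CPM and the knockdown 87.5 and 89.4 CPM. Endothelial-like cells ranged from 43.6 to 93.0 CPM and overlapped them. The other 6 classes had means between 26.9 and 35.3 CPM and overlapped one another, with the tumour-like cells at 22.7 to 29.9 CPM. The iRhom genes were apportioned differently. Rhbdf2, the iRhom2 gene, stood at 38.8 to 52.9 CPM in macrophage or monocyte-like cells and at 5.78 to 8.36 CPM in tumour-like cells, which did not overlap. Rhbdf1, the iRhom1 gene, stood at 2.26 to 3.16 CPM in macrophage or monocyte-like cells and at 19.6 to 23.7 CPM in tumour-like cells, the opposite order. Fibroblast-like (5.19 to 88.8 CPM) and mammary epithelial-like cells (12.7 to 42.1 CPM) overlapped the tumour for Rhbdf1, from 33 and 30 UMIs in all.

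Among the tetraspanins, Tspan15 was highest in endothelial-like and tumour-like cells, and no library of the other 6 classes reached the tumour-like range. Endothelial-like cells held 24.2, 74.4, 105 and 67.5 CPM in control 1, control 2, knockdown 1 and knockdown 2, from 48 UMIs in all. Tumour-like cells held 39.4, 39.8, 23.2 and 23.1 CPM in the same order, from 9137 UMIs. Macrophage or monocyte-like cells held 1.74 to 2.81 CPM and T and NK-like cells 0 to 2.78 CPM, and the highest library of the other classes was 22.2 CPM in fibroblast-like cells, from 8 UMIs in all. A UMI of Tspan15 was found in 26.8%, 22.5%, 18.4% and 16.8% of tumour-like cells, at median depths of 11443, 9046, 9949 and 9058 UMIs. The exact 95% binomial intervals, which cover counting error only, were 25.6% to 28.1%, 21.3% to 23.6%, 17.5% to 19.3% and 16.0% to 17.6%. The share in macrophage or monocyte-like cells, which hold little of the gene, was 0.921% to 1.52% at median depths of 3675 to 4116 UMIs. With each cell thinned to 1000 UMIs the tumour-like shares were 3.63%, 3.69%, 2.07% and 2.15%, and the macrophage or monocyte-like shares were 0.138% to 0.297%.

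Tspan33 had its highest level in dendritic-like cells, at 19.6, 49.6, 64.6 and 17.6 CPM in control 1, control 2, knockdown 1 and knockdown 2, from 50 UMIs. It was at 1.31 to 4.22 CPM in macrophage or monocyte-like cells, which are more numerous and held 171 UMIs of it, and at 0.0293 to 0.0880 CPM in tumour-like cells, where 19 UMIs were counted in all. No UMI was counted in 2030 T and NK-like cells, which allows a share of up to 0.148% of cells with a UMI. The share of dendritic-like cells with a UMI was 6.19%, 12.7%, 12.5% and 5.77% in the 4 libraries with 2228.5 to 2869 UMIs in the median cell, compared with 0.633% to 1.84% of the deeper macrophage or monocyte-like cells. Within the dendritic-like cells, 26 of the UMIs came from 73 cells of a sub-cluster led by Ccr7, Il12b and Fscn1, genes of mature migratory dendritic cells, in which the 4 libraries stood at 54.0, 160, 188 and 58.2 CPM. A further 12 UMIs came from 63 cells led by Krt18 with Xcr1 and Clec9a, markers of the conventional type that cross-presents antigen. The sub-clusters led by Ly6d, Cd209d, Saa3 and Lyve1 had none, and the last carried the tissue macrophage gene Folr2 among its leaders.

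**Figure D1:**
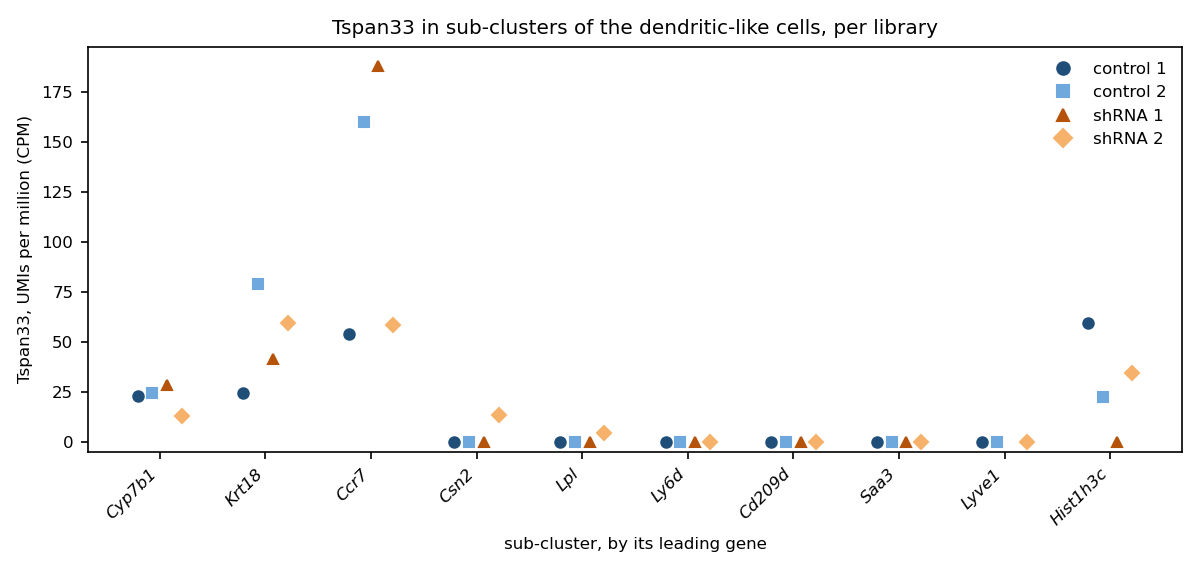
Tspan33 in CPM for each sub-cluster of the dendritic-like cells, named by its leading gene, with 1 point for each library that has cells there. The sub-cluster led by Ccr7 holds the highest points, at 160 and 188 CPM, and 4 of the 10 sub-clusters are at 0 in every library.

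Tspan14 was highest in endothelial-like (38.7 to 83.9 CPM), mammary epithelial-like (42.6 to 51.8 CPM) and macrophage or monocyte-like cells (41.7 to 49.9 CPM), which overlapped one another and neutrophil-like cells (16.5 to 61.4 CPM), and stood at 9.54 to 12.4 CPM in tumour-like cells. Tspan5 was at 43.7 to 51.9 CPM in fibroblast-like cells, 26.7 to 34.5 CPM in tumour-like cells and 12.2 to 20.5 CPM in macrophage or monocyte-like cells, and these 3 ranges were separate. Tspan17 differed little between tumour-like (14.02 to 16.1 CPM) and macrophage or monocyte-like cells (14.8 to 15.9 CPM) and was at 0 to 2.86 CPM in T and NK-like cells. The level of a gene in a class was not tested between classes, since the classes were made from the same cells.

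**Figure D2:**
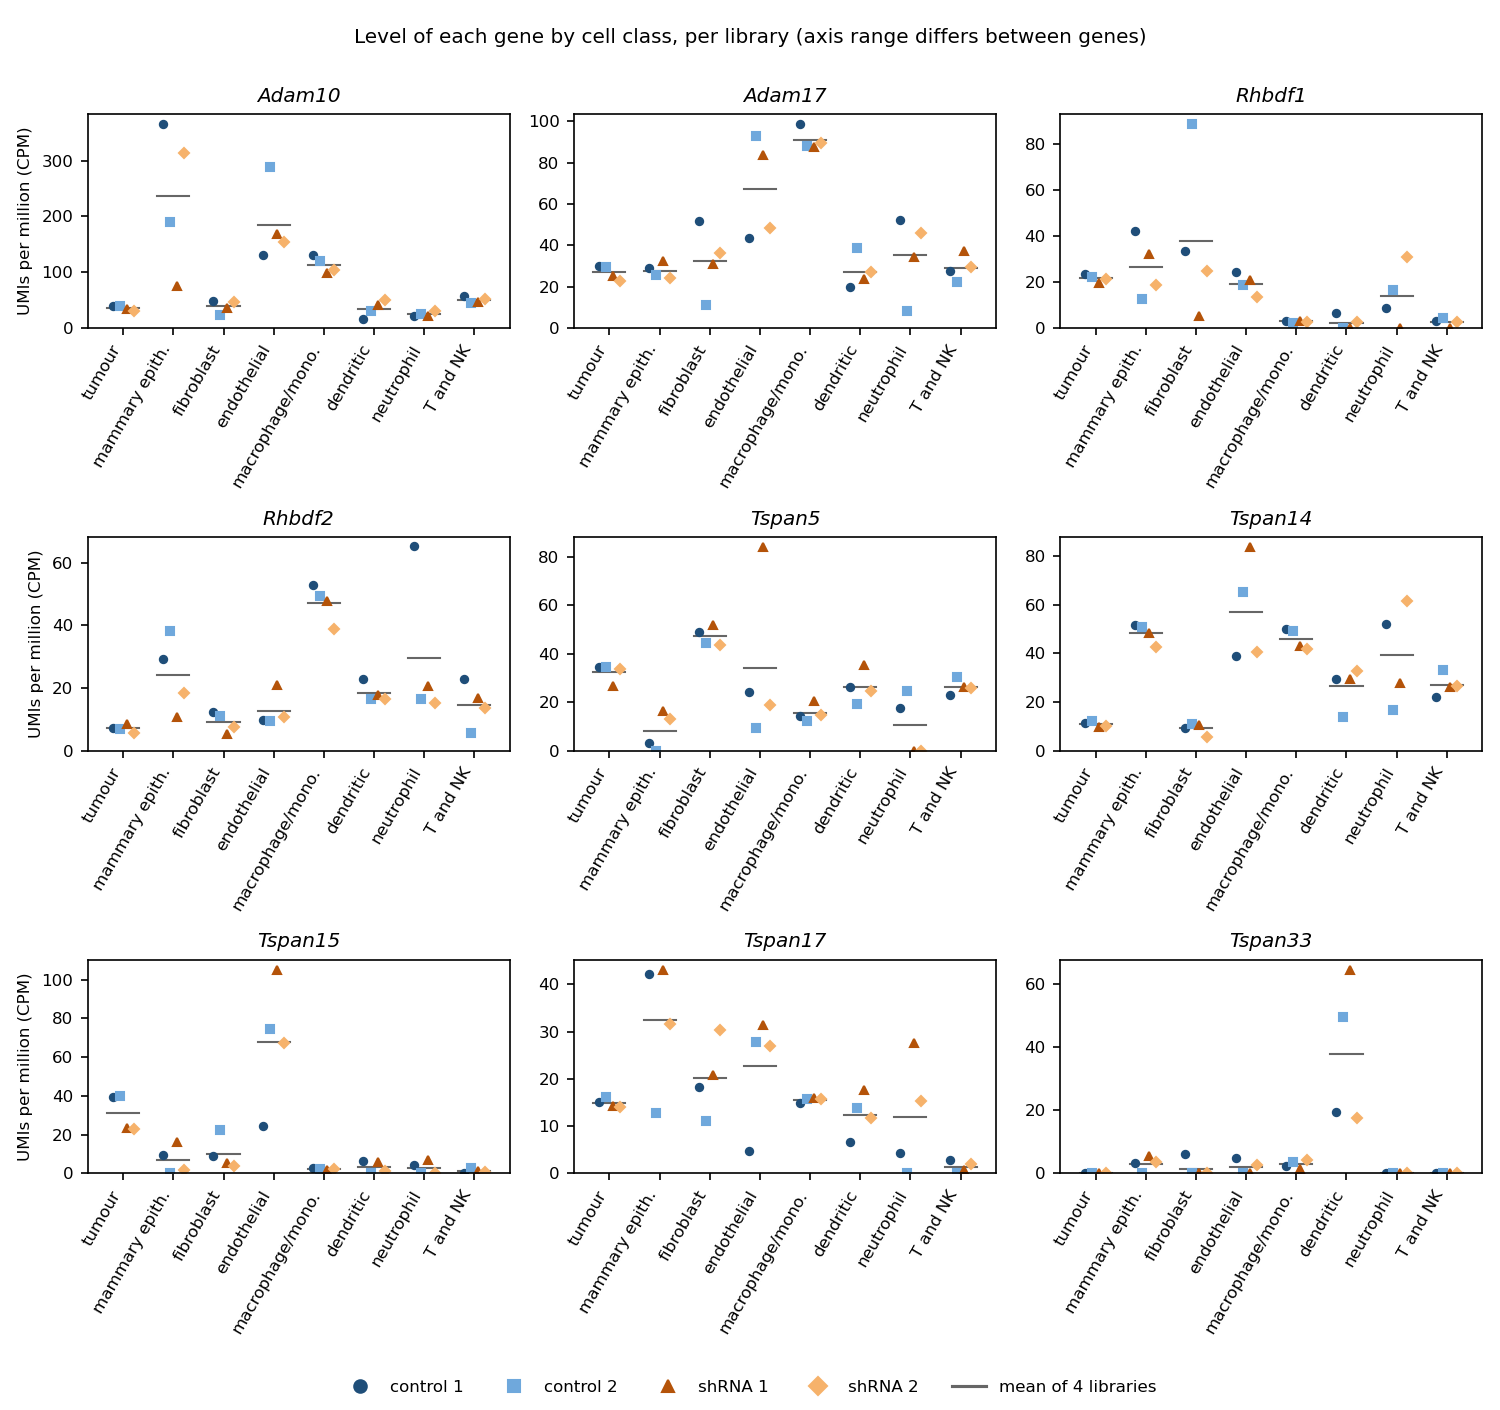
Level of each of the 9 genes in CPM by cell class, with 1 point for each library and a line at the mean of the 4 libraries. Rhbdf2 is high in macrophage or monocyte-like cells where Rhbdf1 is near 3 CPM, and Tspan15 is near 2 CPM in macrophage or monocyte-like cells against 23.1 to 39.8 CPM in tumour-like cells.

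Within the tumour-like cells, 9 clusters were separated and named from marker genes or from their leading genes. Tspan15 was concentrated in the cluster led by Slurp1 and Ly6c1, where it was itself among the 10 leading genes, at 138, 169, 86.7 and 109 CPM in control 1, control 2, knockdown 1 and knockdown 2. No other tumour cell cluster had a library above 46.1 CPM, the value of control 1 in the cluster led by Aqp5 and Id4. The lowest mean was 14.03 ± 3.48 CPM (SD, n = 4) in the cluster with Ogn and Mgp among its leading genes.

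Adam10 was also highest in the Slurp1 and Ly6c1 cluster, at 81.9, 85.1, 70.2 and 55.8 CPM. Next came the cluster led by Malat1 and Zfpm2 (43.7 to 51.9 CPM) and that of Slpi and Enpp2 (40.7 to 49.4 CPM), which overlapped, and the cells of stress and hypoxia were lowest with 9.78 to 25.4 CPM. Adam17 was at 38.2 to 48.7 CPM in the Slurp1 and Ly6c1 cluster and overlapped the Malat1 and Zfpm2 cluster (33.9 to 42.0 CPM). Tspan17 was at 31.4 to 42.8 CPM in the Slurp1 and Ly6c1 cluster, above every library of the other 8 clusters, whose highest value was 23.3 CPM.

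Tspan5 had another order, with 61.3 to 102 CPM in the Malat1 and Zfpm2 cluster and 49.7 to 67.0 CPM in the Slurp1 and Ly6c1 cluster, and no library of the other clusters above 37.2 CPM. Tspan14 was likewise highest by its mean in the Malat1 and Zfpm2 cluster, at 15.9 to 18.2 CPM, with overlap of the Slurp1 and Ly6c1 cluster (9.94 to 17.4 CPM). Rhbdf1 did not follow Tspan15. Its mean was 18.3 ± 2.64 CPM (SD, n = 4) in the Slurp1 and Ly6c1 cluster and 32.1 ± 2.14 CPM (SD, n = 4) in the Ogn and Mgp cluster, where Tspan15 was lowest. Rhbdf2 lay between means of 5.62 and 9.31 CPM in the 9 clusters.

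**Figure D3:**
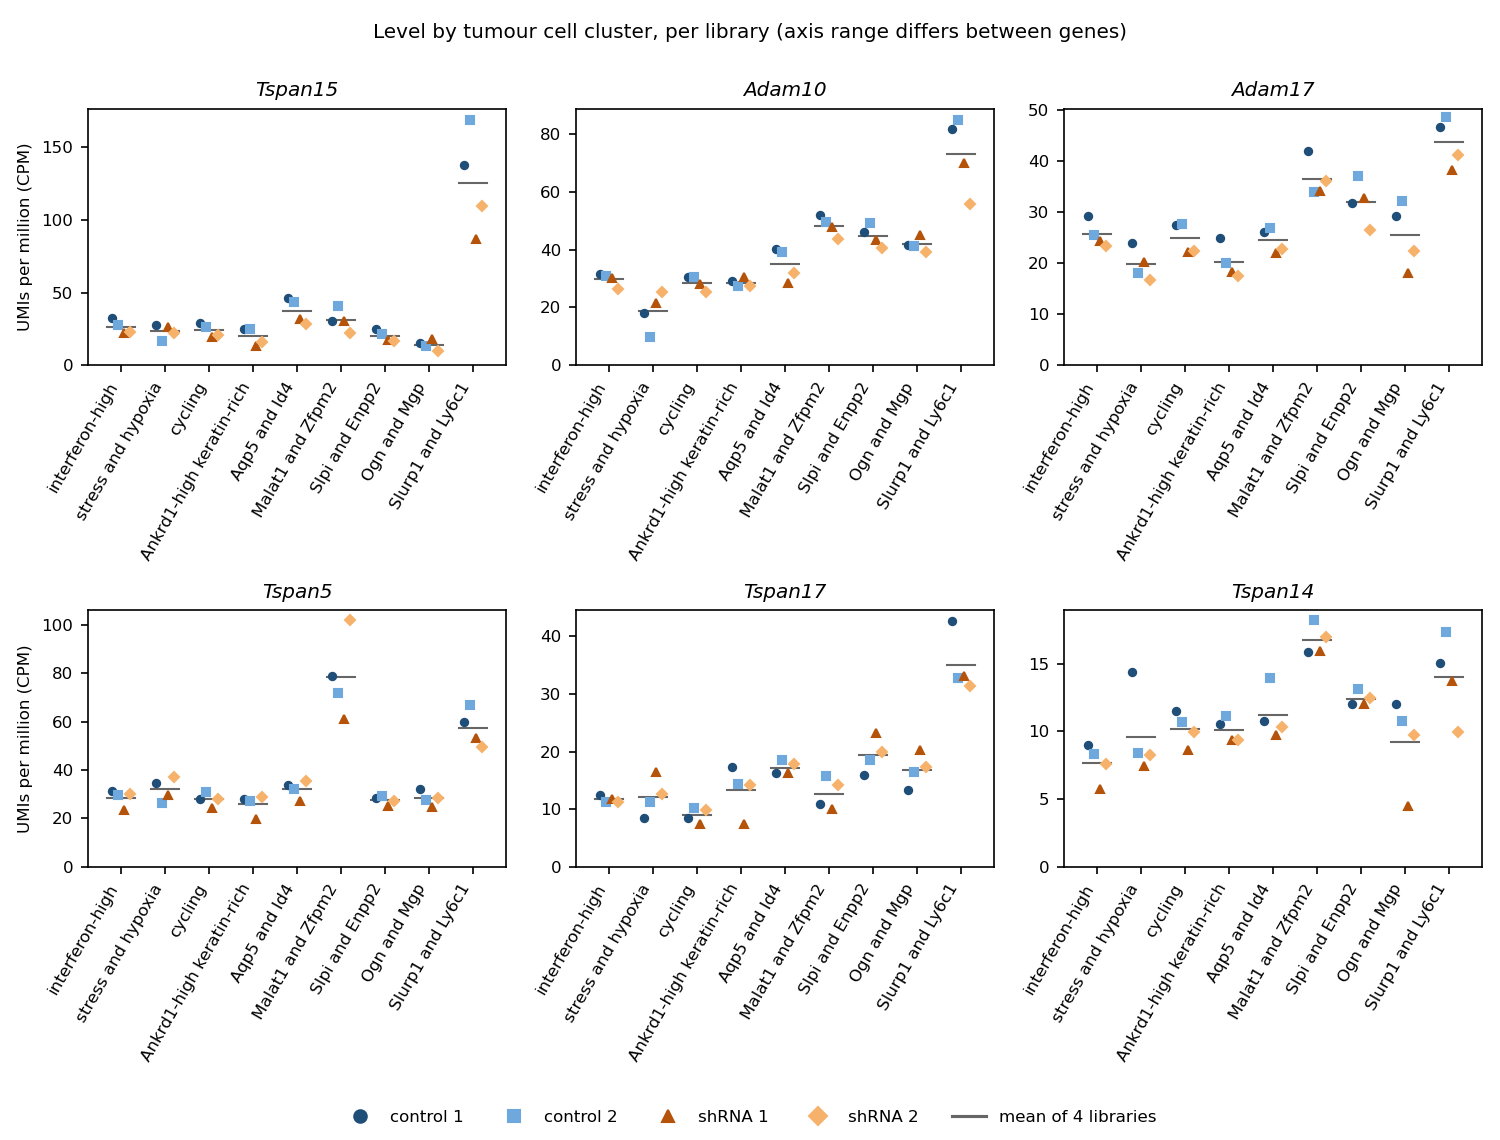
Level of 6 of the genes in CPM by tumour cell cluster, with 1 point for each library and a line at the mean of the 4 libraries. The Slurp1 and Ly6c1 cluster is highest for Tspan15, Adam10, Adam17 and Tspan17 by the mean, and the Malat1 and Zfpm2 cluster for Tspan5 and Tspan14.

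Between the groups, tumour-like cells of the knockdown libraries had less Tspan15 than those of the controls, 23.2 ± 0.0833 CPM against 39.6 ± 0.278 CPM (SD, n = 2 each). The fitted log2 difference was -0.71 ± 0.08 (SE). The same direction without overlap was found for Adam10, Adam17, Rhbdf1, Tspan5, Tspan14 and Tspan17, each with a smaller difference that did not pass the test. Thus, apart from Tspan15, 6 of the 7 members tested were lower in both knockdown libraries than in both controls, where 31.7% of all 14509 genes tested were, and none was higher in both, where 12.1% were. Overlap is judged on unscaled CPM, for the members as for all genes. For Rhbdf1 (22.3 against 21.5 CPM) and Tspan5 (34.4 against 33.8 CPM) the nearest libraries differ by less than the 0.057 log2 shift of the fit. None of the 7 members passed the edgeR test, where 0.352% of all genes did. The median log2 difference was -0.13 over the 7 and 0.00574 over all genes tested. In these cells the markers of macrophages or monocytes, 14 of 15 of them, were also lower in both knockdown libraries, with summed levels of 409 and 539 CPM in the controls and 192 and 202 CPM in the knockdown.

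Adam10 was at 39.2 and 40.0 CPM in the controls and at 32.8 and 29.9 CPM in the knockdown, a log2 difference of -0.28 ± 0.08 (SE; edgeR adjusted p = 0.216). Adam17 was at 29.9 and 29.7 CPM in the controls and at 25.1 and 22.7 CPM in the knockdown, -0.26 ± 0.08 (SE; edgeR adjusted p = 0.275). For both proteases the control libraries lay within 1 CPM of each other. Tspan14 was at 11.5 and 12.4 CPM against 9.54 and 9.98 CPM, -0.23 ± 0.10 (SE; edgeR adjusted p = 0.417). Apart from Tspan15, 3 of the 7 members were under an unadjusted p of 0.05 by edgeR and 2 by DESeq2, and at an adjusted p 0 by each.

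The iRhom genes and the other tetraspanins differed less. Rhbdf1 was at 23.7 and 22.3 CPM against 19.6 and 21.5 CPM, -0.10 ± 0.09 (SE; edgeR adjusted p = 0.719). Rhbdf2 was at 7.17 and 6.96 CPM against 8.36 and 5.78 CPM, with the controls between the knockdown libraries (0.06 ± 0.17, SE; edgeR adjusted p = 0.931). Tspan5 was at 34.5 and 34.4 CPM against 26.7 and 33.8 CPM, so its lower mean came mainly from knockdown 1 (-0.13 ± 0.12, SE; edgeR adjusted p = 0.738). Tspan17 was at 15.2 and 16.1 CPM against 14.3 and 14.02 CPM (-0.09 ± 0.09, SE; edgeR adjusted p = 0.762). Tspan33 was too low to be tested there.

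**Figure D4:**
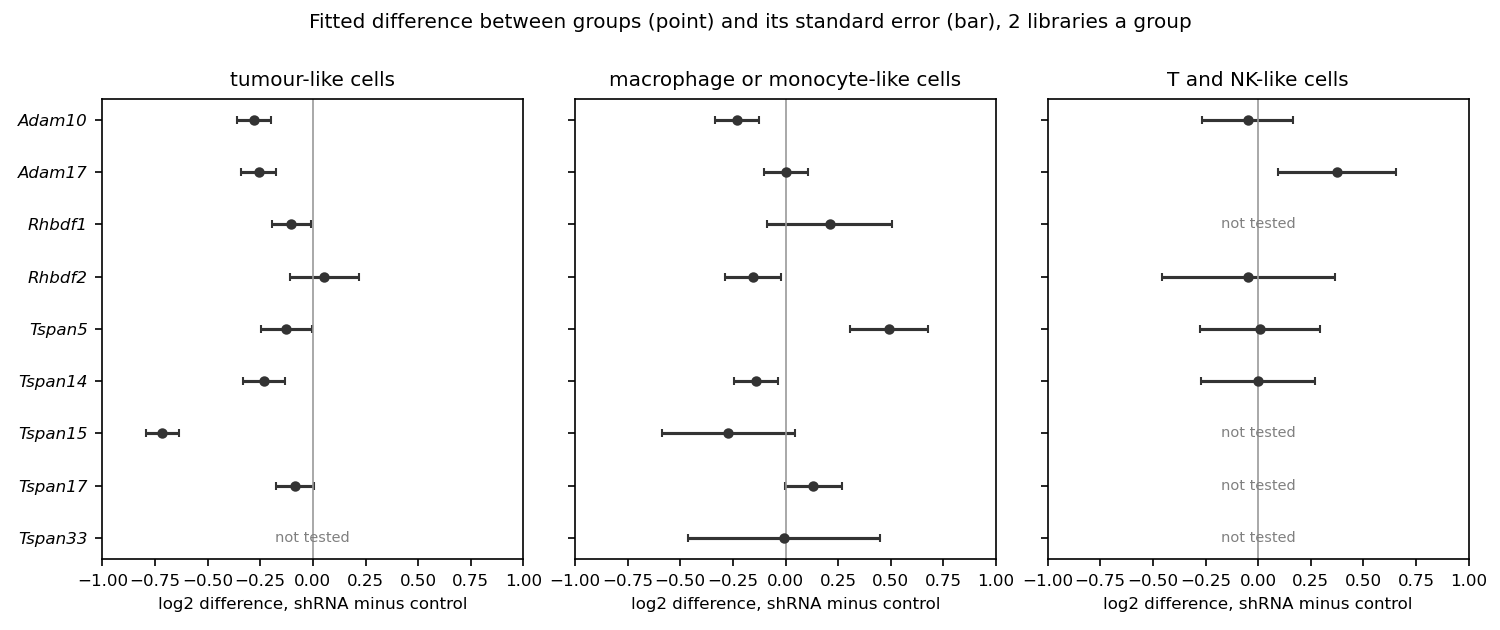
Fitted log2 difference of knockdown minus control for each gene in 3 cell classes, with bars for the standard error and 2 libraries a group. Tspan15 lies at -0.71 in tumour-like cells, the other tested genes there between -0.28 and 0.06, and genes that were too low are marked as not tested.

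The macrophage RNA in the tumour-like cells was estimated from 10 macrophage genes at 1.24% and 1.33% of the RNA in the controls and at 0.556% and 0.615% in the knockdown. That would make up 9.12% and 9.44% of the Rhbdf2 level of the tumour-like cells in the controls and 4.14% and 3.998% of the Adam10 level, but 0.0881% and 0.0755% of the Tspan15 level. After it was subtracted the log2 difference was -0.73 for Tspan15, -0.26 for Adam10, -0.24 for Adam17 and 0.14 for Rhbdf2. The part of the unequal removal of doublets in this estimate was not tested.

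The mix of tumour cell clusters differed between the groups as well. Among tumour-like cells, the Slurp1 and Ly6c1 cluster made up 7.99% and 6.80% in the controls (394 and 343 cells) but 1.72% and 1.33% in the knockdown (125 and 111 cells). It supplied 28.3% and 31.1% of their Tspan15 UMIs in the controls and 7.19% and 6.75% in the knockdown. Of the Adam10 UMIs it supplied 16.9% and 15.7% in the controls and 4.12% and 2.66% in the knockdown. Without that cluster, Tspan15 was at 30.7 and 29.6 CPM in the controls and at 22.0 and 21.9 CPM in the knockdown, a log2 difference of -0.40 ± 0.08 (SE). Without it the log2 difference of Adam10 was -0.16 ± 0.08 (SE; edgeR adjusted p = 0.593). Of the 7 members besides Tspan15, 4 were then lower in both knockdown libraries, where 30.6% of the same 14509 genes were. Tspan5, at 32.3 and 31.8 against 26.2 and 33.6 CPM, and Tspan17, at 12.7 and 14.8 against 13.9 and 13.8 CPM, overlapped without that cluster. With equal weight for each of the 9 clusters the differences were -0.44 for Tspan15, -0.10 for Adam10, -0.21 for Adam17 and -0.24 for Tspan14. They were -0.0025 for Rhbdf1, -0.03 for Tspan5, 0.06 for Tspan17 and 0.02 for Rhbdf2, and the libraries of the groups overlapped for these 4. Fewer cells of a state and less RNA of the gene in each cell both lower a sum over the class. The level within the clusters is given next.

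**Figure D5:**
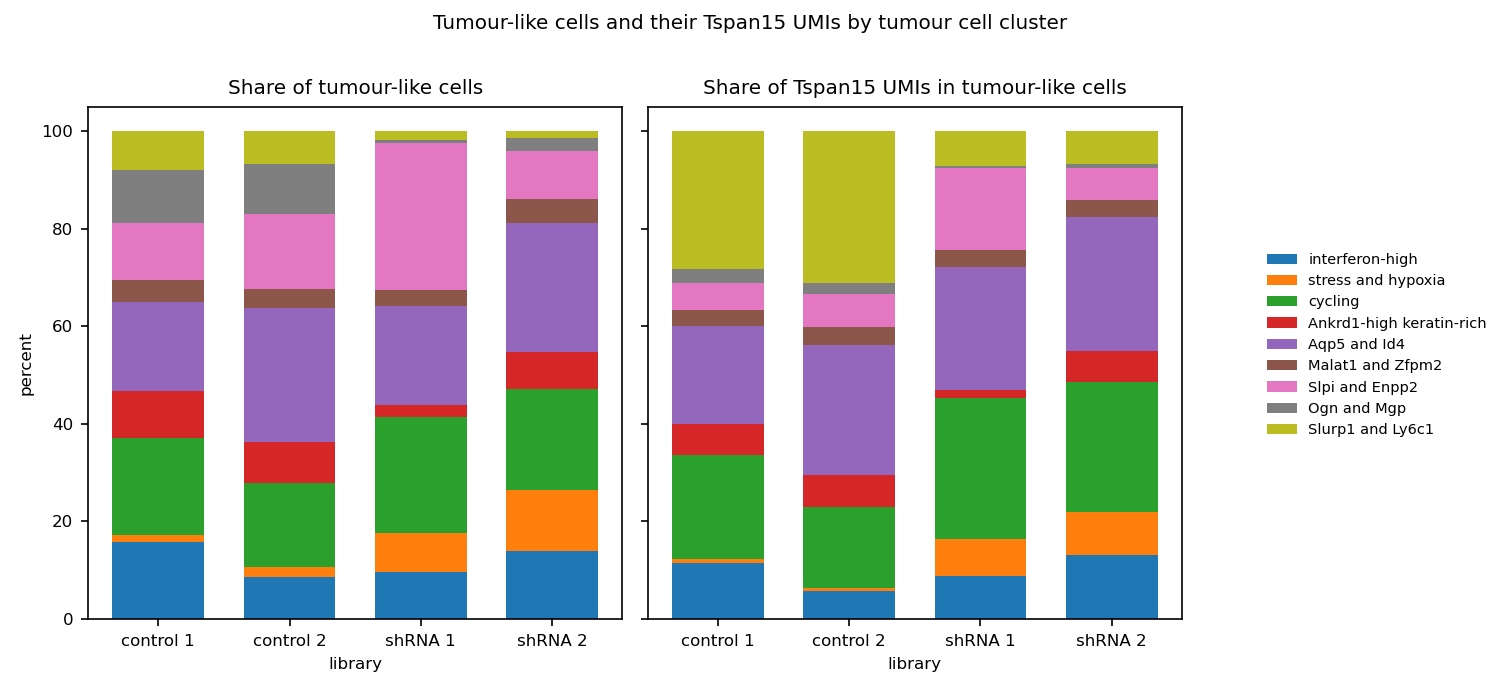
Share of the tumour-like cells (left) and of their Tspan15 UMIs (right) by tumour cell cluster, in percent, with 1 stacked bar for each library. The Slurp1 and Ly6c1 cluster is the top segment, 28.3% and 31.1% of the Tspan15 UMIs in the controls against 7.19% and 6.75% in the knockdown.

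Within single clusters, Tspan15 was lower in both knockdown libraries than in both controls in 6 of 9 clusters, and the fitted difference was below 0 in 8. Of the 9011 genes tested in all 9 clusters, 7.5% were lower without overlap in as many and 13.2% were below 0 in as many. In the Slurp1 and Ly6c1 cluster the values were 138 and 169 CPM against 86.7 and 109 CPM, a log2 difference of -0.60 ± 0.15 (SE). In the Aqp5 and Id4 cluster they were 46.1 and 43.7 CPM against 31.6 and 28.0 CPM (-0.54 ± 0.11, SE), and in the Ankrd1-high keratin-rich cluster 24.5 and 24.9 CPM against 13.3 and 16.2 CPM (-0.68 ± 0.17, SE). The groups overlapped in the clusters of stress and hypoxia, of Malat1 and Zfpm2, and of Ogn and Mgp. The genes tested that were lower in both knockdown libraries made up 21.3% in the interferon-high cluster, 20.1% in stress and hypoxia, 27.9% in cycling cells, 19.1% in the Ankrd1-high cluster, 29.2% in that of Aqp5 and Id4, 21.3% in that of Malat1 and Zfpm2, 23.4% in that of Slpi and Enpp2, 22.9% in that of Ogn and Mgp and 25.1% in that of Slurp1 and Ly6c1. Tspan15 in the Aqp5 and Id4 cluster was the single call of a member in any cluster, where 0.63% of the genes tested passed, and nothing is read from it. In the other clusters, in the same order, 0.537%, 0.125%, 0.314%, 0.339%, 0.108%, 0.619%, 0.113% and 0.574% of genes passed and no member did.

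Adam17 and Tspan14 each had a fitted difference below 0 in 9 of 9 tumour cell clusters, as had 5.18% of the 9011 genes tested in all of them. Adam17 was lower without overlap in 6 clusters, and its fitted differences ran from -0.47 to -0.09. In the cycling cells it was at 27.5 and 27.7 CPM in the controls and at 22.3 and 22.3 CPM in the knockdown (-0.26 ± 0.10, SE; edgeR adjusted p = 0.465). Tspan14 was lower without overlap in 7 clusters, with fitted differences from -0.49 to -0.0027. Of the genes, 3.97% were lower without overlap in as many clusters as Tspan14, and 7.5% in as many as Adam17. The -0.49 of Tspan14 was in the cells of stress and hypoxia, from 18 UMIs in the controls. Its values there were 14.4 and 8.38 CPM in the controls against 7.41 and 8.24 CPM in the knockdown. The -0.47 of Adam17 was in the Ogn and Mgp cluster, where knockdown 1 held 59 cells. The knockdown libraries held 52 UMIs of Adam17 and 21 of Tspan14 in that cluster. Adam10 had a fitted difference below 0 in 6 of 9 clusters, and 35.3% of the genes were below 0 in as many. It was lower without overlap in 6, as were 7.5% of the genes in as many, and higher without overlap in 1. That was the cells of stress and hypoxia, where the controls held 74 and 110 cells. There its values were 18.0 and 9.78 CPM in the controls against 21.6 and 25.4 CPM in the knockdown (0.80 ± 0.34, SE; edgeR adjusted p = 0.905). The clusters of a library share its cells' handling and are not replicates.

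Tspan17 went both ways among the clusters. It was higher without overlap in 3, among them that of Slpi and Enpp2 with 15.9 and 18.5 CPM in the controls and 23.3 and 19.9 CPM in the knockdown (0.37 ± 0.16, SE; edgeR adjusted p = 0.491), and lower in 1. Genes higher in both knockdown libraries were 13.9% of those tested in the Slpi and Enpp2 cluster, 15.3% in stress and hypoxia and 14% in the Ogn and Mgp cluster, and 11.7% to 17.5% over the 9 clusters. Rhbdf2 overlapped between the groups in all 9 clusters.

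In macrophage or monocyte-like cells, where all 9 members were tested, none passed the edgeR test, and 0.223% of the 12533 genes tested did. At an unadjusted p under 0.05 there were 2 members by edgeR and 1 by DESeq2, and none passed in DESeq2 after adjustment. Of the 9 members, 4 were lower in both knockdown libraries, where 32% of all genes were, and 1 was higher, where 11.6% were. The 4 were Adam10, Tspan14, Rhbdf2 and Tspan15. For Rhbdf2 (49.4 against 47.9 CPM) and Tspan15 (2.26 against 2.20 CPM) the nearest libraries differ by less than the 0.083 log2 shift. Adam10 was at 132 and 120 CPM in the controls and at 97.98 and 105 CPM in the knockdown (-0.23 ± 0.10, SE; edgeR adjusted p = 0.500). Tspan14 was at 49.9 and 49.1 CPM against 43.1 and 41.7 CPM (-0.14 ± 0.11, SE; edgeR adjusted p = 0.725), and Rhbdf2 at 52.9 and 49.4 CPM against 47.9 and 38.8 CPM (-0.15 ± 0.13, SE; edgeR adjusted p = 0.762). Adam17 overlapped between the groups, with a log2 difference of 0.00 ± 0.11 (SE; edgeR adjusted p = 0.997).

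Tspan5 was the member that was higher, at 14.3 and 12.2 CPM in those cells of the controls and at 20.5 and 14.8 CPM in those of the knockdown (0.49 ± 0.18, SE; edgeR adjusted p = 0.408). Knockdown 1 was the high library, and knockdown 2 lay close to control 1. Without knockdown 2 the log2 difference was 0.75 (edgeR adjusted p = 0.0254), and without knockdown 1 it was 0.20 (edgeR adjusted p = 0.843). Each of these fits has a single knockdown library, which is assumed to vary like the controls. In the cluster led by 1700112E06Rik and Slc8a1, Tspan5 was at 30.7 and 27.2 CPM against 65.2 and 44.2 CPM (0.94 ± 0.27, SE; edgeR adjusted p = 0.238), where 0.0905% of genes passed and 11.5% were higher in both knockdown libraries. The direction was not shared by all clusters of the class. In the cluster of Apoe and Lyz2 Tspan5 was at 10.6 and 10.2 against 15.6 and 10.8 CPM (0.40 ± 0.20, SE; edgeR adjusted p = 0.640), and 11.9% of genes were higher in both knockdown libraries there. In that of Plac8 and Ly6c2 it was at 24.2 and 23.6 against 21.8 and 20.5 CPM (-0.21 ± 0.35, SE; edgeR adjusted p = 0.994), and 14.5% of genes were lower in both. The groups overlapped in the clusters of Mmp12 and Mmp13 and of cycling cells. In the cycling cluster led by histone genes, Rhbdf2 was at 50.8 and 45.7 CPM against 29.5 and 22.0 CPM (-0.86 ± 0.30, SE; edgeR adjusted p = 0.558) and Adam10 at 154 and 142 CPM against 73.6 and 118 CPM (-0.61 ± 0.19, SE; edgeR adjusted p = 0.410). Of the genes tested in that cluster 0.189% passed and 21.4% were lower in both knockdown libraries.

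The difference between the groups was compared between classes in 1 model with the library as a block. For macrophage or monocyte-like against tumour-like cells the difference of the log2 effects was 0.28 ± 0.11 (SE; edgeR adjusted p = 0.297) for Adam17 and 0.64 ± 0.28 (SE; edgeR adjusted p = 0.423) for Tspan5. No other member came nearer to the threshold than Adam17, and 365 of the 15098 genes tested passed. For Adam10 it was 0.07 ± 0.11 (SE; edgeR adjusted p = 0.878). For T and NK-like against tumour-like cells it was 0.67 ± 0.29 (SE; edgeR adjusted p = 0.764) for Adam17.

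In T and NK-like cells 5 members were tested and none passed the edgeR test or DESeq2, nor was any under an unadjusted p of 0.05 by either tool, where 0.453% of the 8162 genes tested passed edgeR. Adam17 was at 27.6 and 22.2 CPM in the controls and at 37.0 and 29.4 CPM in the knockdown, without overlap (0.37 ± 0.28, SE; edgeR adjusted p = 0.850). It was the only one of the 5 higher in both knockdown libraries, where 17.3% of all genes were, and none was lower in both, where 19.7% were. Adam10 was at 56.2 and 44.4 CPM against 45.7 and 51.0 CPM (-0.05 ± 0.22, SE; edgeR adjusted p = 0.985). Adam17 and Adam10 rest on 171 and 284 UMIs there. In these cells 12 of the 15 macrophage or monocyte markers were lower in both knockdown libraries and 1 was higher, with none at 0 and summed levels of 1228 and 1265 CPM in the controls and 1081 and 918 CPM in the knockdown. Their part in the differences was not tested.

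The dendritic-like cells, with 64 to 208 cells a library, allowed a test of Adam10 and Tspan33 only. Neither passed the edgeR test, where 0.0486% of 4119 genes did, and at an unadjusted p under 0.05 there was 1 by edgeR and 0 by DESeq2. Adam10 was at 16.4 and 30.3 CPM in the controls and at 41.1 and 50.5 CPM in the knockdown, from 66 UMIs (1.09 ± 0.49, SE; edgeR adjusted p = 0.999). It was higher in both knockdown libraries, where 10.2% of all genes were. Of these UMIs 27 came from the sub-cluster led by Lpl and Retnla, at 87.4 CPM, which held 6, 4, 7 and 48 cells in control 1, control 2, knockdown 1 and knockdown 2, and the part of this mix was not tested. The summed macrophage or monocyte markers of these cells were 4785 and 6503 CPM in the controls and 5913 and 8665 CPM in the knockdown, and their part in the result was not tested. Tspan33 overlapped, with control 1 and knockdown 2 low and the others high (-0.08 ± 0.67, SE; edgeR adjusted p = 0.999).

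The other genes of the shedding pathway were counted from 8 lists. In tumour-like cells none of the tested genes passed among 6 genes of the list of other ADAM proteases and Tspan10, 12 genes that activate or carry the proteases, 4 inhibitors, 6 genes of gamma-secretase, 25 ADAM10 substrates, 19 other tetraspanins and 6 other rhomboids. Of 26 ADAM17 substrates, a list that includes Sema4d, the gene the shRNA is directed at, 1 passed, with a lower level. That was Csf1r, the receptor of a macrophage growth factor, which fell from 6.02 and 7.01 CPM to 2.59 and 2.98 CPM (-1.17 ± 0.15, SE; edgeR adjusted p = 0.0233). It is 1 of the 15 macrophage or monocyte markers whose summed level in these cells is given above. Among the other genes with high levels, the protease Adam15 was at 55.0 and 50.7 CPM in the controls and at 47.7 and 39.3 CPM in the knockdown, Adam9 at 34.8 and 35.4 against 34.4 and 26.7 CPM, and Itgb1, an integrin subunit, at 393 and 392 against 392 and 354 CPM. The metalloprotease inhibitor Timp1 was at 966 and 1057 against 1461 and 794 CPM.

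Among ADAM10 substrates, Lrp1, an endocytic receptor, was at 310 and 342 CPM in the tumour-like cells of the controls and at 279 and 262 CPM in those of the knockdown (-0.21 ± 0.08, SE; edgeR adjusted p = 0.375), and Cd44, a receptor of hyaluronan, at 253 and 247 against 251 and 242 CPM (0.04 ± 0.08, SE; edgeR adjusted p = 0.882). The medians of the log2 differences in tumour-like cells were -0.12 for the 25 ADAM10 substrates and 0.04 for the 26 ADAM17 substrates. They were -0.16 for the 6 genes of the list of other ADAM proteases and Tspan10, which also holds Adamts1. For the 12 genes of activation and traffic the median was -0.05, for the 4 inhibitors -0.10 and for the 6 gamma-secretase genes -0.02. For the 19 other tetraspanins it was -0.03 and for the 6 other rhomboids 0.12. The median over all genes tested was 0.00574.

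In macrophage or monocyte-like cells 1 gene of these lists passed. Areg, which encodes the growth factor amphiregulin, an ADAM17 substrate, rose from 3.14 and 3.31 CPM to 9.36 and 7.09 CPM (1.43 ± 0.22, SE; edgeR adjusted p = 0.0340). It was 1 of 24 ADAM17 substrates tested there, where 0.223% of all genes tested passed. Areg is also on the list of tumour markers used to name the cells. The part of tumour RNA in its difference was not tested. None passed of 6 genes of the list of other ADAM proteases and Tspan10, 11 genes of activation and traffic and 2 inhibitors. Nor did any of 6 gamma-secretase genes, 24 ADAM10 substrates, 16 other tetraspanins and 4 other rhomboids. Adam8, a protease of leukocytes, was at 171 and 141 CPM in the controls and at 233 and 217 CPM in the knockdown (0.61 ± 0.12, SE; edgeR adjusted p = 0.113), without passing. In T and NK-like cells no gene of the 8 lists passed, with 2, 11, 2, 5, 13, 18, 12 and 2 tested in the order proteases, activation, inhibitors, gamma-secretase, ADAM10 substrates, ADAM17 substrates, tetraspanins and rhomboids.

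Genes with the most similar pattern were sought among 9488 genes with at least 20 CPM in 1 of 17 cell groups, the 8 classes and the 9 tumour cell clusters, so that tumour-like cells enter both as a class and by cluster. The measure was Pearson's r of log2(CPM + 1) over the means of the 17 groups, which share libraries and depth, so it is a description with no test. For Tspan15 these were Tpd52l2 (r = 0.931), Cd109 (r = 0.918), a membrane-anchored co-receptor of transforming growth factor beta, and Erf (r = 0.913), a transcriptional repressor. For Adam10 they included Clptm1 (r = 0.907) and Cracr2b (r = 0.902). For Adam17 they were Plau (r = 0.868), the urokinase gene, the transcription factor gene Mef2a (r = 0.866) and Slc23a2 (r = 0.843), a vitamin C transporter. For Rhbdf2 they were P2rx7 (r = 0.947), an ATP-gated channel of macrophages, Rbm47 (r = 0.943) and Tmem189 (r = 0.942).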

How the data were processed

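Single-cell RNA sequencing (DNBelab C4) was done on 2 control and 2 Sema4d-shRNA tumours' libraries. The deposited matrices hold UMI counts per gene and cell, made with PISA 1.0 per the file headers; STAR 2.5.1b and the builds GRCh38 and mm10 are named in the submitters' processing notes, with no role. Neither labels nor headers give the annotation, how cells were called or whether strand was used, so reads of overlapping or antisense genes cannot be told apart. Every deposited cell had at least 1000 UMIs.

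A cell needed 300 genes or more and no more than 20% mitochondrial UMIs (45062 of 45220 passed). Doublets were scored with Scrublet: its automatic threshold marked 0.766% and 1.51% of the control cells, and the highest 6.00% of scores were removed in both knockdown libraries, where the automatic threshold marked none. Clustering used scanpy 1.11.5 (2000 variable genes, none of them among the 9, 30 components, 15 neighbours, resolution 1) and gave 23 clusters, of which 3 stayed unnamed. Thresholds for naming were set after the clusters were seen, and sub-clusters of T and NK-like or dendritic-like cells with over 20% doublets were moved out. Cell names in the files are numbers, so barcodes shared by libraries could not be counted; 0 cells had equal UMIs, genes and mitochondrial share in 2 libraries.

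Counts were summed per library and class and tested with edgeR 4.0.16 (R 4.3.3; filterByExpr, TMM, robust quasi-likelihood, group only), with Benjamini-Hochberg adjustment over all genes at 0.05, and with DESeq2 1.42.0 as an alternative. The test was tried on simulated data. With counts drawn from each gene's own estimated spread, the share of false calls among the genes passing was above 0.05. With counts drawn from the trend of the spreads it was below 0.05. With 2 libraries a group, edgeR calls may therefore exceed the nominal false rate. Other alternatives were RLE size factors, no filter on low counts, a replicate block, each library left out, doublets kept, other resolutions, at most 10% mitochondrial UMIs and thinning to 1000 UMIs. The dendritic-like fit, the fits with the mitochondrial cluster or without the Slurp1 and Ly6c1 cluster, and the leave-one-out fits within clusters were chosen after seeing the data. The planned tests within clusters were of tumour cell clusters only. Those within macrophage or monocyte-like clusters and the model that compared classes were not among the planned tests. Named genes were the 9 members, the genes of the lists that passed or else were among the 3 highest in a class, and the 3 most similar genes for 4 members; a gene among these is not reported here. The members and lists were chosen with earlier results of these data known. Gene coordinates are from GENCODE M21.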

Additional observations from a re-analysis of the deposited data

How the results depend on the processing

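With 2 libraries a group, the number of genes called depended on the setting. In tumour-like cells 51 genes passed, against 556 without a filter on low counts, 250 with DESeq2, 79 with the replicate block, 118 at resolution 0.6 and 109 with the mitochondrial cluster included. Leaving out 1 library gave 20 to 422 genes, the lowest without control 2 and the highest without shRNA 2. In macrophage or monocyte-like cells 28 passed, against 397 without the filter, 64 with DESeq2, 316 with the block and 18 to 302 with a library left out. In T and NK-like cells 37 passed, against 93 without the filter and 71 to 95 with a library left out. In dendritic-like cells 2 passed, against 16 without the filter, 4 with DESeq2, 1 with the block, 0 with doublets kept, 1 at resolution 1.5 and 8 to 66 with a library left out; no such cluster was found at resolution 0.6. In the tumour cell clusters 369 calls were made, and 331 to 1238 with a library left out.

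The count of members called in tumour-like cells was 1, which is Tspan15 and from which nothing is read; it was 0 without the Slurp1 and Ly6c1 cluster and 0 to 1 with a library left out (0 without control 2). For macrophage or monocyte-like cells it was 0, and 0 to 1 with a library left out. The Tspan15 difference in tumour-like cells was -0.40 without that cluster, -0.44 with equal weight for each cluster and, with a library left out, -0.727 to -0.704.

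Of the members' log2 differences under the alternatives, 237 kept their direction and side of the threshold and 31 changed sign; the cause was not tested. With a library left out, the differences that changed sign ranged in tumour-like cells from -0.220 to 0.285 for Rhbdf2 and -0.323 to 0.0441 for Tspan5. In macrophage or monocyte-like cells they ranged from -0.0794 to 0.0849 for Adam17, -0.357 to 0.0314 for Rhbdf2 and -1.061 to 0.540 for Tspan33. In T and NK-like cells they ranged from -0.201 to 0.170 for Adam10, -0.615 to 1.445 for Rhbdf2, -0.198 to 0.186 for Tspan5 and -0.297 to 0.273 for Tspan14. In tumour-like cells Tspan17 was 0.0673 without the Slurp1 and Ly6c1 cluster and 0.0573 with equal weights. In macrophage or monocyte-like cells Adam17 was -0.0247 without the filter and -0.00903 with doublets kept, Rhbdf1 was -0.116 and Tspan33 0.258 at resolution 0.6, and Tspan33 was 0.00479 at resolution 1.5. In T and NK-like cells the replicate block gave 0.140 for Rhbdf2, -0.00936 for Tspan5 and -0.0317 for Tspan14, and DESeq2 gave 0.0383, -0.0105 and -0.0287. There Rhbdf2 was 0.196 at resolution 1.5 and Tspan14 -0.00804 with RLE size factors.

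The labels do not say that a replicate number pairs samples. The correlation of the deviations of same-numbered libraries was 0.0913 in tumour-like, 0.238 in macrophage or monocyte-like, -0.0085 in T and NK-like and 0.0704 in dendritic-like cells. Levels rest on few UMIs in endothelial-like, mammary epithelial-like, fibroblast-like and neutrophil-like cells, where differences between the groups were not tested.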
